A study of Mus musculus with 12 samples.

Results

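The genes described here are 45 mouse genes of the cell cycle and of DNA replication, followed in ATAC-seq data, a method in which a transposase cuts and tags accessible DNA. They were chosen by name from the machinery that drives a cell from growth into DNA synthesis and mitosis, out of 19523 protein-coding genes with an annotated start. Their regions were the called peaks within 2 kb of a gene start and the peaks assigned to these genes in the authors' deposited comparison tables. This gave 65 of the 73156 regions of the series, 51 within 2 kb of a start and 14 farther away. The 14 distant regions entered because those tables list them as changed, so their differences are described without a p-value. Results below are for start regions unless a distant region is named.

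All 12 libraries came from granulocyte-monocyte progenitors of C57BL6 bone marrow that carry ER-HOXA9, a fusion of the leukaemia protein HOXA9 with the estrogen receptor. Every group, the controls included, was grown in beta-estradiol at 0.5 uM, the ligand of the estrogen receptor, and in stem cell factor. Day0 was untreated at day 0. The other groups were taken on day 2, after DMSO (Vehicle), GSK-LSD1 at 200 nM, which blocks the histone demethylase LSD1 (LSD1i), 5 uM mercaptopurine, a purine analogue (6MP), 5 uM cerulenin, a fatty acid synthase inhibitor (CER), or all 3 drugs together at these doses (Combo). Each group had 2 libraries, and whether they came from separate cultures or from 1 clone is not given in the sources used here, so p-values measure the spread between these libraries only.

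The retinoblastoma family (Rb1, Rbl1, Rbl2), called pocket proteins, binds E2F transcription factors and holds S phase genes down. D cyclins with Cdk4 or Cdk6, and then E cyclins with Cdk2, phosphorylate the pocket proteins and free the E2F factors. E2F sites mark many promoters of replication genes, whereas promoters of mitotic genes often carry CCAAT boxes. Mitotic promoters also often carry a CHR element, which the DREAM complex and B-MYB or FOXM1 use. In leukaemic progenitors these genes are of interest because terminal myeloid differentiation ends with withdrawal from the cycle.

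The promoter sequences of 7 members show these elements. The first 3 carry words of the E2F site and the next 3 carry the CHR words with CCAAT boxes, and all 6 come from starts that closed in the test described below. Mcm6 is shown as a licensing gene with 3 E2F matches. Sequences are from RefSeq (GRCm38.p6, the mm10 build of the files), 5′ to 3′ on the gene's strand, from 250 bases before to 50 after the annotated start. Capitals mark matches on either strand.
E2f2 (chr4:136172024-136172323, plus strand): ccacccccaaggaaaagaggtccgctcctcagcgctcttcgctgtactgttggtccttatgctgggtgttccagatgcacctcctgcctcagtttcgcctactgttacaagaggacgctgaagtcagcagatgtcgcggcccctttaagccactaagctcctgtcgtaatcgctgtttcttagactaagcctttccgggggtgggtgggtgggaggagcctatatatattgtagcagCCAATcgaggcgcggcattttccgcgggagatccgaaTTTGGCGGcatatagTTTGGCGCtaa
E2f7 (chr10:110745189-110745488, plus strand): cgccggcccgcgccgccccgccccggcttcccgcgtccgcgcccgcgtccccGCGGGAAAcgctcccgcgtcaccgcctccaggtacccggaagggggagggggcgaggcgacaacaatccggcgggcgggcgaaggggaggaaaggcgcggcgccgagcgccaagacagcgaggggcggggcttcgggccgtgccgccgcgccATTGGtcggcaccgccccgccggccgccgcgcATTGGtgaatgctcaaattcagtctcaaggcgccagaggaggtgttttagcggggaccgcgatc
Rbl1 (chr2:157204485-157204784, minus strand): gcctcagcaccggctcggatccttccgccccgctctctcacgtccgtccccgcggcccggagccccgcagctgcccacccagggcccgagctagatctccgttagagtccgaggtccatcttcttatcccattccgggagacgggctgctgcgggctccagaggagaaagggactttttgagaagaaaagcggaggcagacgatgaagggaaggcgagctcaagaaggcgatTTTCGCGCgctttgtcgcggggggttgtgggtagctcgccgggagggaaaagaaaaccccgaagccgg
Ccnb2 (chr9:70421505-70421804, minus strand): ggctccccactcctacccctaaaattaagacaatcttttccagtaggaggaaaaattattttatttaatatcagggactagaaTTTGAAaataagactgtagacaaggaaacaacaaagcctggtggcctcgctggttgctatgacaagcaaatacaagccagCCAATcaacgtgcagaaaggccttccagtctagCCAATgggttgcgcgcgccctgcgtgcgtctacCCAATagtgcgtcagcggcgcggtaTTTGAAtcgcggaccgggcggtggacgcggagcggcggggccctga
Bub1 (chr2:127831810-127832109, minus strand): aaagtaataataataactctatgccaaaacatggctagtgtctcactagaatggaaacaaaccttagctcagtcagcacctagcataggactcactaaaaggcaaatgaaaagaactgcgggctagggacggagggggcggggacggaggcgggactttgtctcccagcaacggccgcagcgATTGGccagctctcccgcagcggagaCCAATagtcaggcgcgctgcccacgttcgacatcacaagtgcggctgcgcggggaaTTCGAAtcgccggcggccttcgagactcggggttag
Plk1 (chr7:122159185-122159484, plus strand): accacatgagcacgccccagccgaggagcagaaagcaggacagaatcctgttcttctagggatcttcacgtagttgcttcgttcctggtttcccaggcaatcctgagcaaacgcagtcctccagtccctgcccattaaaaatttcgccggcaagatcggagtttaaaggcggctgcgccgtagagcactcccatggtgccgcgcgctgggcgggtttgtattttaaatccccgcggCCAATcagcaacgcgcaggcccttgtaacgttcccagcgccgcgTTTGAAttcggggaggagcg
Mcm6 (chr1:128359656-128359955, minus strand): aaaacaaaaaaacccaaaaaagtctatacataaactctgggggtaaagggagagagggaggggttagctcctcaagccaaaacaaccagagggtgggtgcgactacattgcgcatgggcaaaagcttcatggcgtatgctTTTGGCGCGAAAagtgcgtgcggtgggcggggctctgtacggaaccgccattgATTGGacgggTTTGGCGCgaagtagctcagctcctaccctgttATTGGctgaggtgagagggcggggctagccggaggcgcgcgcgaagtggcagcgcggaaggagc

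The words searched were TTTCCCGC, TTTGGCGC, TTTCGCGC, TTTGCCGC, TTTCCCGG and TTTGGCGG for E2F, TTTGAA and TTCGAA for CHR, and CCAAT for the CCAAT box, each on both strands. TTCGAA is its own reverse complement, and 3 pairs of matches overlapped each other. The RefSeq promoter table held 36 of the 45 genes, with 41 windows because some genes have several starts. An E2F word was found in 36.6% of these windows, against 4.93% of 21263 windows of protein-coding genes. CHR words were found in 36.6% against 17.6%, and a CCAAT box in 68.3% against 38.2%. Median GC content was 59.3% in the members' windows and 56.3% in all of them. By role, 7 of 8 licensing genes held an E2F word (Cdc6, Cdt1, Mcm3, Mcm5, Mcm6, Mcm7 and Orc1), and Mcm2 did not. Among mitotic genes, 5 of 6 held a CHR word (Aurka, Bub1, Bub1b, Cdc20 and Plk1), while Birc5 held an E2F word. The 21 E2F matches lay a median of 156 bases from the summit of the region, and 8 lay within 100 bases of it.

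Peaks were called at all 45 gene starts in all 12 libraries. Genome-wide, 63.6% of genes had a peak near a start in any library, and 88.1% of the 11254 regions at gene starts were called in every library. Signal is given here as the fragment pileup at the highest summit of a region, divided by the background depth of the library. On this scale the median member start stood at 102-fold, against 75.0-fold for all gene starts and 83.8-fold for those called in all 12 libraries. The members above the median of all starts numbered 31 of 45. Their regions were 837 to 3471 bases wide with a median of 1509, close to the 1376 of all start regions. The summit lay within 200 bases of the annotated start at 35 of the 41 members whose strand was known.

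Members differed widely in this level of openness. Mcm7, a subunit of the replicative helicase, was highest, with a median of 248-fold and a range of 113 to 335 over the libraries. It was followed by Pcna, the sliding clamp of the replication fork (168-fold), E2f1, an activating E2F (160-fold), Mcm4, another helicase subunit (159-fold), and Cdk4, a D cyclin kinase (154-fold). At the low end stood Ccnd1, which encodes cyclin D1 (28.3-fold), the spindle checkpoint gene Bub1b (37.5-fold) and E2f2, another activating E2F (53.3-fold). The ranges over libraries of neighbours in this order overlapped. Mcm4, Mcm7, Pcna, Aurka and Orc1 share their start region with a gene that begins within 1 kb (Prkdc, Ap4m1, Cds2, Cstf1 and Prpf38a), and the signal cannot be divided between them.

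Libraries differed in quality. Depth was 2.44 to 4.55 background fragments per position, with 42651 to 56398 peaks, and pileups at member starts were 69 to 1290 fragments with a median of 431. At regions common to all libraries the median signal was 28.3 to 42.7 times background in 10 libraries, 23.0 in CER replicate 2 and 16.9 in 6MP replicate 1. Signal was therefore taken as log2 and centred on each library's median over these common regions. Scaled by depth alone, the median difference over all regions tested was -0.19 for LSD1i minus Vehicle, +0.13 for Combo, -0.46 for 6MP, -0.26 for CER and +0.19 for Vehicle minus Day0. Centred differences are relative to such shifts. The centred signal at member starts still varied between replicates, with a median within-group SD of 0.163, from 0.0624 at Cdc20 to 0.485 at Rb1. Names of the libraries end in P (both Day0), in R (Vehicle replicate 1, 6MP replicate 2, CER replicate 1 and Combo replicate 2) or in no letter (the other 6), and the meaning of the letter is not given in the sources used here. Markers of the labelled cell type had a peak near the start at 11 or 12 of 12 genes per library. Of the T cell markers only 1 of 5 had one (Cd3e, Cd3d, Cd4 and Cd8a had none), and of the B cell markers 3 of 5 (Ms4a1 and Pax5 had none). Erythroid markers had one at 3 to 4 of 5, megakaryocyte markers at 3 of 4, mast cell and basophil markers at 2 of 4, and stromal and endothelial markers at 2 to 4 of 5.

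**Figure D1:**
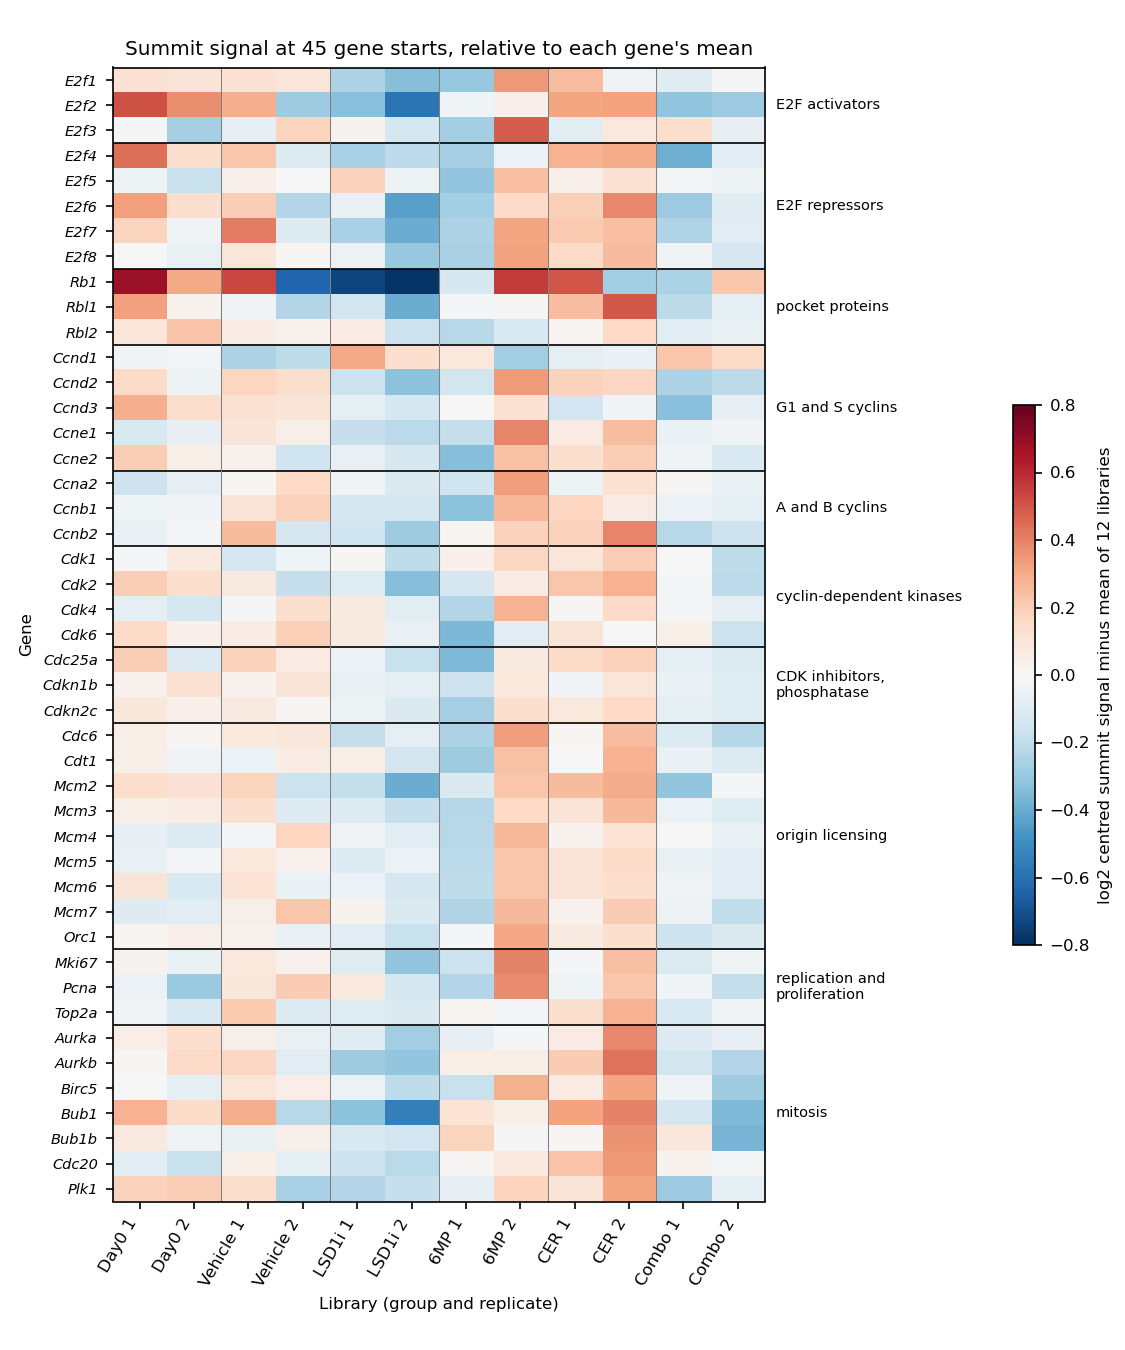
Centred log2 summit signal at the 45 gene starts, each minus the gene's mean over the 12 libraries (colour), by library (columns) and gene grouped by role (rows). LSD1i, Combo and 6MP replicate 1 lie below the gene mean at most starts, 6MP replicate 2 and both CER libraries above it, and Rb1 has the widest spread between replicates (SD 0.485).

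The question with most libraries behind it is how the 4 day 2 libraries with the LSD1 inhibitor (LSD1i and Combo) differed from the 6 without it (Vehicle, 6MP and CER). Relative to the library medians, 12 of the 51 start regions closed and 1 opened by limma (adjusted p below 0.05 over 34229 regions). The closed ones belong to Bub1, E2f2, Rb1, Aurkb, E2f7, Ccnd2, Ccnb2, Mcm2, E2f4, E2f6, Rbl1 and Plk1, and the opened one to Ccnd1. The share closed was 23.5%, against 21.1% of 9940 regions at gene starts, and 1.98% of those opened. Over all regions, 24.7% were called in either direction, and 13 of the 51 member starts. The median difference at member starts was -0.19, with 49 of 51 negative, against a median of -0.18 for all gene starts. In bulk libraries, fewer cells with an open promoter and a less open promoter in every cell cannot be told apart.

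This closing is relative. Scaled by depth alone, without centring, the median difference at member starts was +0.09 and none of the 12 was called closed, and all gene starts likewise had a median of +0.11. With centring that follows signal intensity the median was -0.03, with 6 closed (11.8%) and 2 opened, against 10.4% of all gene starts closed and 461 of 9940 opened. One library also weighed on the count. Without 6MP replicate 1, the library of weakest signal, 38 of 51 member starts closed (74.5%), against 61.6% of all gene starts. In place of 12, the closed starts numbered 6 without Vehicle replicate 1 (11.8%, against 12.5% of all gene starts), 5 without LSD1i replicate 2 (9.80%, against 7.30%) and 6 without Combo replicate 1 (11.8%, against 7.74%). Calls at Bub1, E2f2, Aurkb, Ccnd2 and Ccnb2 held when any 1 library was left out. Those at Mcm2, E2f7, E2f4, E2f6, Rbl1, Rb1 and Plk1 were lost without LSD1i replicate 2 or Combo replicate 1, and all of these but Mcm2 also without Vehicle replicate 1. The Ccnd1 call was lost without LSD1i replicate 1 or Combo replicate 1. Further losses came without LSD1i replicate 1 (E2f4, Plk1 and Rb1), 6MP replicate 2 (E2f6, Plk1 and Rb1), CER replicate 1 (Rb1) and CER replicate 2 (E2f6, Plk1 and Rbl1).

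**Figure D2:**
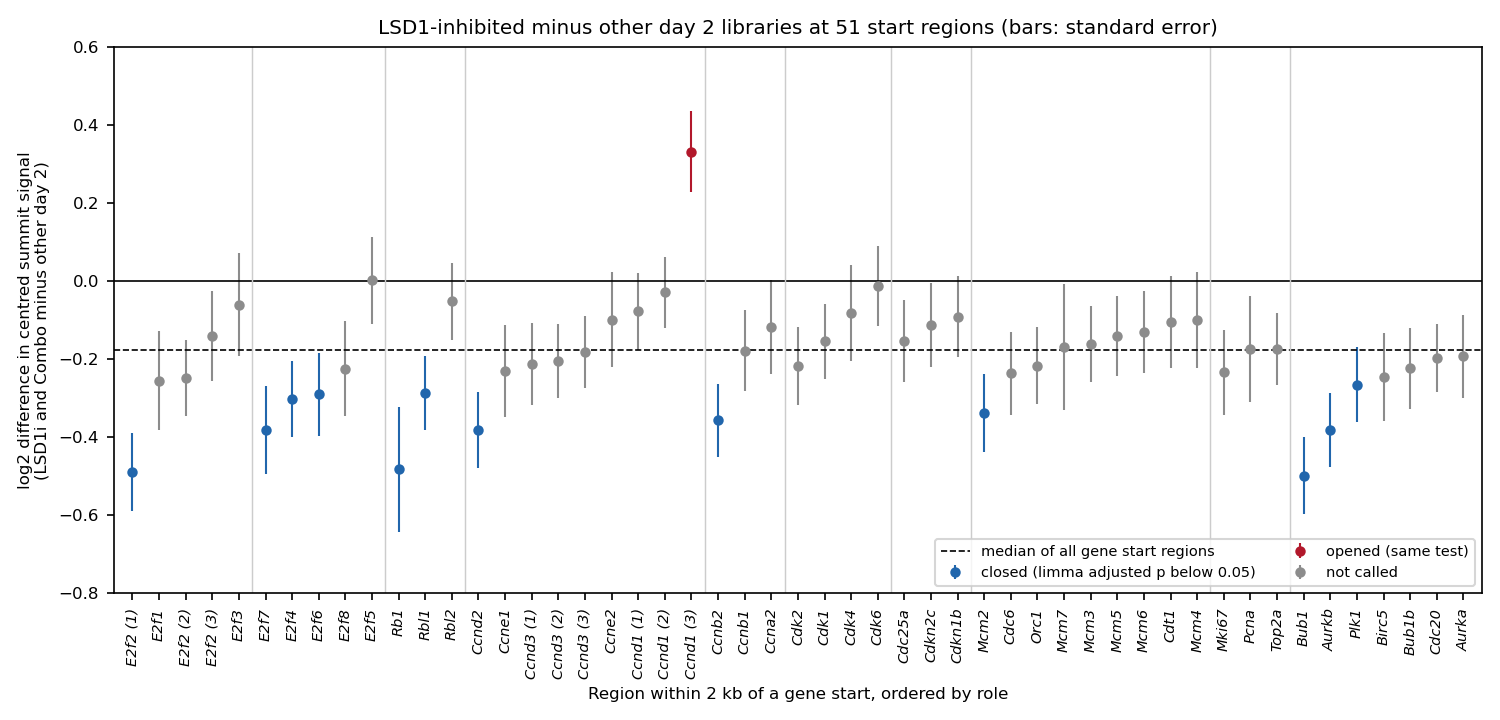
Difference in centred log2 summit signal between LSD1i and Combo libraries and the other day 2 libraries at the 51 start regions, ordered by role and then by value (points, limma estimate; bars, standard error; numbers in brackets tell regions of 1 gene apart). Most points lie near the dashed median of all gene starts, -0.18, with Bub1 and E2f2 lowest and Ccnd1 above 0; scaled by depth alone the median of the members is +0.09.

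Among E2F genes the activator E2f2 stood lowest. Its start region (chr4:136172144-136173583) had centred log2 signals of 1.03 and 0.46 in Vehicle, 0.71 and 0.78 in 6MP and 1.06 and 1.06 in CER, but 0.41 and 0.16 in LSD1i and 0.43 and 0.45 in Combo. Day0 was highest, at 1.25 and 1.11. The inhibited libraries lay below all other day 2 libraries, with Vehicle replicate 2 close to Combo replicate 2. The difference was -0.49 ± 0.10 (SE; limma adjusted p = 0.000538). Both further E2f2 regions, near the second start, differed by -0.14 and -0.25 and were not called. E2f1 (-0.26 ± 0.13) and E2f3 (-0.06 ± 0.13), the other activators, were not called either.

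Of the 5 repressive E2F genes, E2f7, E2f4 and E2f6 closed, in a fit that closed 21.1% of all gene starts. E2f7, which encodes an atypical repressor that dampens E2F targets late in S phase, had 2.01 and 1.5 in Vehicle, 1.36 and 1.92 in 6MP, 1.81 and 1.85 in CER, 1.35 and 1.21 in LSD1i and 1.36 and 1.52 in Combo. The groups overlapped, and the difference was -0.38 ± 0.11 (limma adjusted p = 0.0133). E2f4, the main E2F of quiescent cells, closed by -0.30 ± 0.10 (adjusted p = 0.0227) and E2f6, which represses without pocket proteins, by -0.29 ± 0.11 (limma adjusted p = 0.0433). E2f8 stood at -0.22 ± 0.12 and E2f5 at 0.00 ± 0.11, the highest of its role.

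Among the pocket protein genes, set against the same 21.1% of all gene starts, Rbl1 and Rb1 closed. Rbl1, which encodes p107, closed by -0.29 ± 0.09 (limma adjusted p = 0.0258), and Rbl2, which encodes p130, stood at -0.05 ± 0.10. Rb1, the retinoblastoma gene, closed by -0.48 ± 0.16 (limma adjusted p = 0.0263), but its signal also moved with the letter in the library names. At the Rb1 start (chr14:73324625-73326543) the 6 libraries with a letter had 1.28 to 1.75, and the 6 without one 0.28 to 0.93. These ranges do not overlap, also within Vehicle (1.60 and 0.43), 6MP (0.93 and 1.62), CER (1.56 and 0.78) and Combo (0.81 and 1.28). Rb1 was the only one of 63 member regions with values in all libraries for which this held, against 2.95% of 9910 gene starts. Both LSD1i libraries, at 0.32 and 0.28, carry no letter. The difference between inhibited and other day 2 libraries was -0.24 among those with no letter (3 against 3) and -0.32 among those with R (1 against 3). With the letter as a block it was -0.29 (limma adjusted p = 0.0176). What the letter contributes to the Rb1 difference was not tested further.

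Cyclin genes went both ways, in a fit that closed 21.1% of all gene starts and opened 1.98%. Ccnd2, which encodes the cyclin D2 common in haematopoietic cells, had 1.32 and 1.28 in Vehicle, 1.0 and 1.48 in 6MP and 1.33 and 1.31 in CER, against 0.97 and 0.81 in LSD1i and 0.90 and 0.94 in Combo (chr6:127149978-127153050). All 4 inhibited libraries were below the other 6, and the difference was -0.38 ± 0.10 (limma adjusted p = 0.00427). Ccnb2, a mitotic B cyclin, had 1.11 and 0.73 in Vehicle, 0.89 and 1.05 in 6MP and 1.05 and 1.25 in CER, against 0.70 and 0.58 in LSD1i and 0.64 and 0.70 in Combo (chr9:70420904-70422249). It closed by -0.36 ± 0.09 (adjusted p = 0.00563), with no overlap, and Vehicle replicate 2 again the nearest. The start of Ccnd1 (chr7:144939564-144940487) was the exception, at -0.31 and -0.27 in Vehicle, 0.02 and -0.34 in 6MP and -0.14 and -0.12 in CER, against 0.24 and 0.07 in LSD1i and 0.15 and 0.09 in Combo. It opened by 0.33 ± 0.10 (limma adjusted p = 0.0179), again without overlap, and by +0.62 scaled by depth, where it did not pass (adjusted p = 0.156). The regions on either side of it, also within 2 kb, stood at -0.08 and -0.03. Ccnd3, Ccne1, Ccne2, Ccna2 and Ccnb1 were not called at any start, with differences from -0.23 to -0.10.

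**Figure D3:**
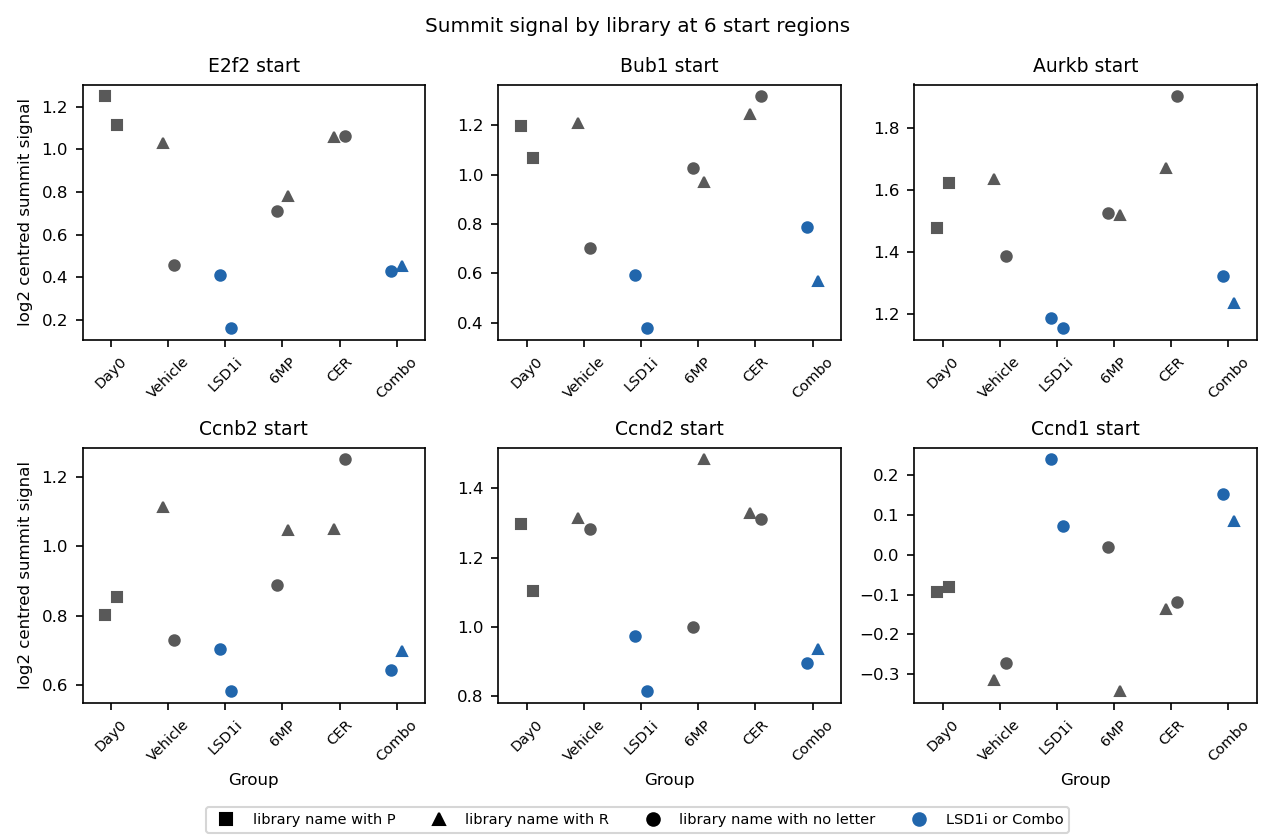
Centred log2 summit signal in each library (y axis; each point 1 library, replicate 1 left and replicate 2 right) by group at the starts of E2f2, Bub1, Aurkb, Ccnb2, Ccnd2 and Ccnd1, with the letter in the library name as marker shape. LSD1i and Combo points (blue) lie below the other day 2 points in 4 panels, above them for Ccnd1, and overlap Vehicle replicate 2 for Bub1.

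No start of a cyclin-dependent kinase gene or of a CDK inhibitor was called, against 21.1% of all gene starts closed. Cdk1, Cdk2, Cdk4 and Cdk6 stood between -0.22 (Cdk2) and -0.01 (Cdk6). Cdkn1b and Cdkn2c, which encode the CDK inhibitors p27 and p18, stood at -0.09 and -0.11, and Cdc25a, a phosphatase that activates Cdk2 and Cdk1, at -0.15. With SEs of 0.10 to 0.12, a missed threshold does not show that these starts stayed the same.

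Licensing genes load the helicase at replication origins in G1. All 9 had a negative difference, with a median of -0.16, against -0.18 for all gene starts. In a fit that closed 21.1% of all gene starts, only Mcm2, a helicase subunit, closed (-0.34 ± 0.10, limma adjusted p = 0.0131). Its signals were 1.47 and 1.13 in Vehicle, 1.18 and 1.52 in 6MP and 1.55 and 1.60 in CER, against 1.11 and 0.90 in LSD1i and 0.98 and 1.28 in Combo, with overlap (chr6:88898227-88899089). The other helicase subunits ranged from -0.17 (Mcm7) to -0.10 (Mcm4). Orc1, a subunit of the origin recognition complex, was not called (-0.22 ± 0.10, limma adjusted p = 0.107), although its 4 inhibited libraries (1.56 to 1.65) lay below the other 6 (1.68 to 2.04). Cdc6 (-0.24) and Cdt1 (-0.11), which bring the helicase to the origin, were not called at their starts. Pcna, Mki67, the Ki-67 gene, and Top2a, which encodes topoisomerase II alpha, stood at -0.17, -0.23 and -0.17 and were not called.

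Of the 7 mitotic genes, Bub1, Aurkb and Plk1 closed, against that share of 21.1%. All 7 had a negative difference, with a median of -0.25, against -0.18 for all gene starts. Bub1, a kinase of the spindle checkpoint, had the largest difference of all 51 start regions, -0.50 ± 0.10 (limma adjusted p = 0.000368). Its signals were 1.21 and 0.70 in Vehicle, 1.03 and 0.97 in 6MP and 1.25 and 1.32 in CER, against 0.59 and 0.38 in LSD1i and 0.79 and 0.57 in Combo (chr2:127831458-127833062). Only Vehicle replicate 2 came within the range of the inhibited libraries. Aurkb, the kinase of the chromosomal passenger complex, had 1.63 and 1.39 in Vehicle, 1.53 and 1.52 in 6MP and 1.67 and 1.9 in CER, against 1.19 and 1.15 in LSD1i and 1.32 and 1.23 in Combo (chr11:69045414-69046526). These did not overlap, and the difference was -0.38 ± 0.09 (adjusted p = 0.00359). Plk1, a kinase of mitotic entry, closed by -0.27 ± 0.10 (limma adjusted p = 0.0423), with Vehicle replicate 2 at 0.75, lower than 3 of the 4 inhibited libraries. Scaled by depth, Plk1 turned to +0.018 (adjusted p = 0.993). Birc5, which encodes survivin, Bub1b, Cdc20, an activator of the anaphase-promoting complex, and Aurka, a kinase of spindle poles, ranged from -0.25 to -0.19 and were not called.

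Single regions were also tested over libraries, by an exact two-sided permutation of the 10 day 2 libraries into 4 and 6, which cannot give a p below 0.00952. That smallest p was reached where the inhibited and other libraries did not overlap, at 6 of the 51 start regions. They were lower at E2f2, Ccnb2, Ccnd2, Aurkb and Orc1 and higher at Ccnd1. Of all gene starts, 9.44% did not overlap in this sense, and 6 of 51 is near that share. An exact p under 0.05 was found at 10 of 51 member regions (19.6%), against 30.6% of all gene starts. Adjusted over those 9940 starts none passed, the lowest adjusted p being 0.101. Among the starts that limma called closed, Rb1, E2f6, E2f4, Rbl1, E2f7 and Plk1 had unadjusted exact p-values of 0.0571 to 0.171. The other starts called closed had an unadjusted exact p under 0.05. Within libraries whose names end in R the median difference at member starts was -0.24, with 50 of 51 negative. That value rests on 1 inhibited library, Combo replicate 2, against 3 others. Within those with no letter (3 against 3) the median was -0.15, with 46 of 51 negative. Values for all gene starts within a letter were not computed.

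A separate list of 113 other cell cycle genes, from replication factors to kinesins and condensins, gave 23 closed and 1 opened of 117 start regions (19.7% closed), with a median of -0.20. Member start regions were split by the words in their first promoter window, the one of lowest coordinate. Those with and without an E2F word had median differences of -0.22 over 13 regions and -0.20 over 24. With and without a CHR word the medians were -0.22 over 12 and -0.18 over 25. E2f3 (-0.06) and Mcm7 (-0.17) hold E2F and CHR words only in a later window, so both were counted as without. Medians over all windows were not computed, so the order of these groups is not settled. These medians describe regions of the same libraries and were not tested.

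Against Vehicle alone, each inhibited group gave fewer calls. For LSD1i, limma called 0 of 51 member starts (7 at an unadjusted p under 0.05), against 6.05% of all regions. Of 10204 gene starts, it called 89 opened and 177 closed. The median difference at member starts was -0.18, with 48 of 51 negative, and -0.16 for all gene starts. Scaled by depth the member median was -0.33. With centring by intensity it was -0.01, with 30 of 51 negative, and -0.02 for all gene starts. For Combo, limma called 0 of 51 starts (3 unadjusted), against 8.07% of all regions. Of 10262 gene starts, 118 were called opened and 118 closed for Combo. Its median at member starts was -0.13 (-0.15 for all starts) and turned to +0.09 scaled by depth. With centring by intensity the Combo median was +0.01, with 23 of 51 negative, and -0.01 for all gene starts. The lowest starts for LSD1i were Rb1 (-0.71 ± 0.25, limma adjusted p = 0.0905), E2f7 (-0.48 ± 0.18, adjusted p = 0.105), Bub1 (-0.47 ± 0.15, 0.0598) and E2f2 (-0.46 ± 0.15, 0.0721). In Combo the same genes stood at 0.03, -0.32, -0.28 and -0.31. Both comparisons share the Vehicle libraries, whose replicates stood apart at Bub1 (1.21 and 0.70) and Rb1. Without Vehicle replicate 2, limma called 4 member starts closed for LSD1i (7.84%, against 6.81% of all gene starts) and 2 for Combo (3.92%, against 2.25%). It called 0 member starts in either comparison without any other 1 library of the groups compared.

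Combo was also compared with LSD1i directly, which asks what mercaptopurine and cerulenin added to the inhibitor. Limma called 0 of 51 member starts (1 at an unadjusted p under 0.05), against 0.112% of all regions and 0 of 10313 gene starts. The median difference was +0.02 at member starts and +0.02 at all gene starts, and +0.40 scaled by depth, where all regions shifted by +0.33. Rb1 had the largest difference, 0.74 ± 0.25 (limma adjusted p = 0.222), from 0.32 and 0.28 to 0.81 and 1.28.

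The authors' deposited table for LSD1i against Vehicle, which holds regions at an FDR of 0.05 or less, gave a fuller list. It listed 53 closed rows of 37 members, 44 of them at promoters. Their median log2 fold was -0.42, with a range of -1.09 to -0.22. Over all 17729 closed rows of that table the median was -0.48, and -0.45 over those at promoters. By position, 39 of the 45 member starts (86.7%) were in the authors' deposited table as closed. Of all gene starts, 67.9% were, and of those called in all 12 libraries, as every member start was, 76.3%. The starts not listed as closed were those of E2f5, Ccnd1, Ccne2, Cdc20, Top2a and Rb1. Starts with the strongest folds in the authors' deposited table were E2f7 (-0.78), E2f2 (-0.68) and Aurkb (-0.62), and the weakest were Cdk4 (-0.22), Cdk6 (-0.24) and Cdkn1b (-0.24). Ccnd1 alone was listed as opened, at its start (+0.35) and at a distant region (+0.61), and 1.33% of all gene starts were opened in the authors' deposited table. The centred summit signal at the closed rows had a median of -0.18 and the depth-scaled signal -0.34. All 52 closed rows with a value were negative on the centred signal. They were listed as closed from the same libraries, so this sign is not separate support. With centring by intensity, some of these rows turned positive.

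**Figure D4:**
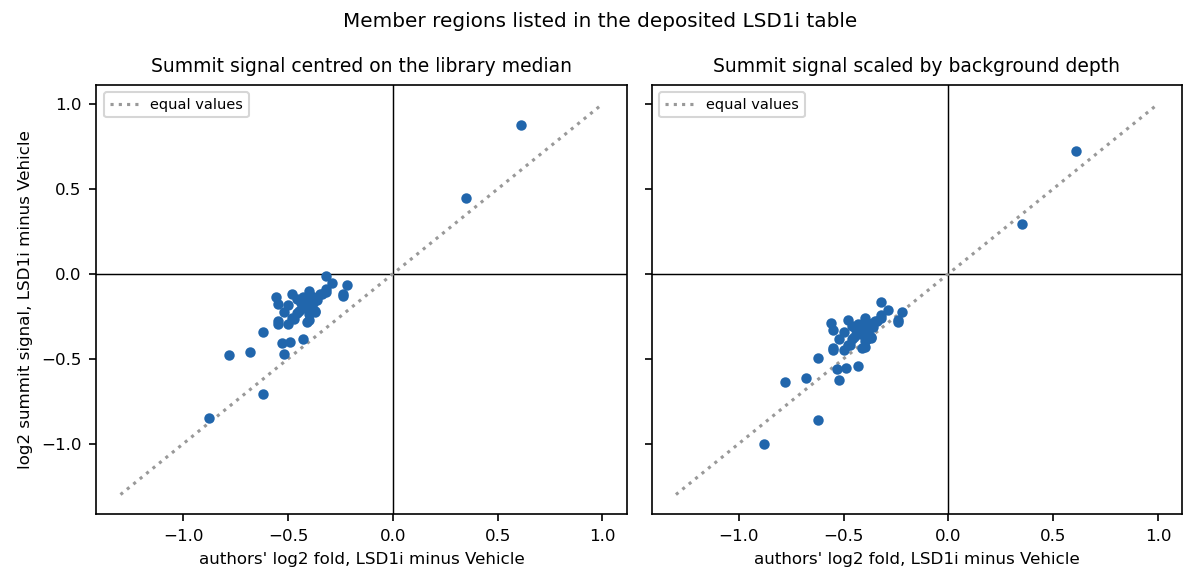
Difference in log2 summit signal, LSD1i minus Vehicle, against the authors' log2 fold for the member regions of their LSD1i table that had a peak in all 4 libraries (points), centred on the library median (left) and scaled by depth (right); the dotted line marks equal values. Closed rows have a median of -0.18 when centred and -0.34 when scaled by depth, against -0.42 in the authors' deposited table; most lie above the line when centred, the upstream Cdc6 region below it (-0.71 against -0.62).

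In the authors' deposited table for Combo against Vehicle, the members had 3 closed and 3 opened rows, and no start was listed as closed. Of all gene starts, 0.409% were listed as closed there and 2.75% as opened. The opened rows were the Ccnd1 start (+0.69), the distant Ccnd1 region (+0.66) and an intron of E2f3 (+0.63), and the closed ones lay at Rbl2 (-0.87), Cdc6 (-0.70) and Cdk6 (-0.68), all in the authors' deposited table. The 2 tables thus list Ccnd1 as opened after LSD1 inhibition with and without the other drugs, but they share the Vehicle libraries. The other 113 cell cycle genes had 104 closed and 5 opened rows in the authors' deposited table for LSD1i. For Combo they had 3 and 7. Over all regions, the authors listed 17729 closed and 3518 opened rows for LSD1i, and 1142 closed and 6813 opened for Combo. At promoters alone, they listed 11111 closed and 751 opened rows for LSD1i, and 344 closed and 1442 opened for Combo. Whether the cell cycle rows depart from these counts was not tested.

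Distant regions included some of the largest differences. They entered because the authors' deposited tables list them as changed, so neither size nor lack of overlap is separate support. In an intron of Cdk6, the kinase that partners D cyclins in haematopoietic progenitors (chr5:3358533-3359470), centred signals were -0.43 and -0.31 in Vehicle, -0.82 and -0.70 in Day0, -0.72 and -0.75 in 6MP and -0.91 and -0.89 in CER. They were -1.21 and -1.22 in LSD1i and -1.51 and -1.17 in Combo. Vehicle was thus highest, Day0, 6MP and CER lay between, and the inhibited libraries were lowest without overlap. The differences were +0.39 ± 0.20 for Vehicle minus Day0, -0.85 ± 0.20 for LSD1i, -0.97 ± 0.20 for Combo and -0.53 ± 0.20 for CER. It was also the only member row when Vehicle was set against Day0 in the authors' deposited table, at +0.65. The Cdk6 promoter, in contrast, differed by -0.12 ± 0.16 for LSD1i. A region that the authors' deposited table places at -6699 bases from the start of Cdc6 (chr11:98900468-98901102) was weak everywhere and had -2.01 and -1.46 in Vehicle, -2.54 and -2.34 in LSD1i and -2.42 and -2.83 in Combo. It differed by -0.61 ± 0.20 between the inhibited and the other day 2 libraries.

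Exon 8 of Rbl2 held a weak region (chr8:91087064-91087665) with the strongest fold of the members in the authors' deposited table for LSD1i, -1.09. It had no called peak in LSD1i replicate 1 and signals of -2.34 in LSD1i replicate 2, -2.07 and -3.19 in Combo and -1.22 and -1.67 in Vehicle. The Combo difference, -1.18 ± 0.32, was -0.63 without Combo replicate 2. Regions that were higher with the inhibitor were an intron of E2f3 (chr13:29963899-29964784) and a distant region near Ccnd1 (chr7:144970752-144971688). The E2f3 intron had -1.08 and -1.08 in Vehicle, -1.0 and -1.03 in 6MP and -1.57 and -1.08 in CER, against -0.57 and -0.71 in LSD1i and -0.61 and -0.80 in Combo, without overlap, a difference of 0.47 ± 0.14. The Ccnd1 region had -2.47 and -1.20 in Vehicle and -0.81 and -1.10 in LSD1i, and no peak in Day0 replicate 2. Its difference was 0.71 ± 0.20, with Combo replicate 2 (-1.40) below Vehicle replicate 2. Ccnd3, a D cyclin gene with 6 listed rows, the most of any member, had differences from -0.25 to -0.07 at these 6 regions.

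**Figure D5:**
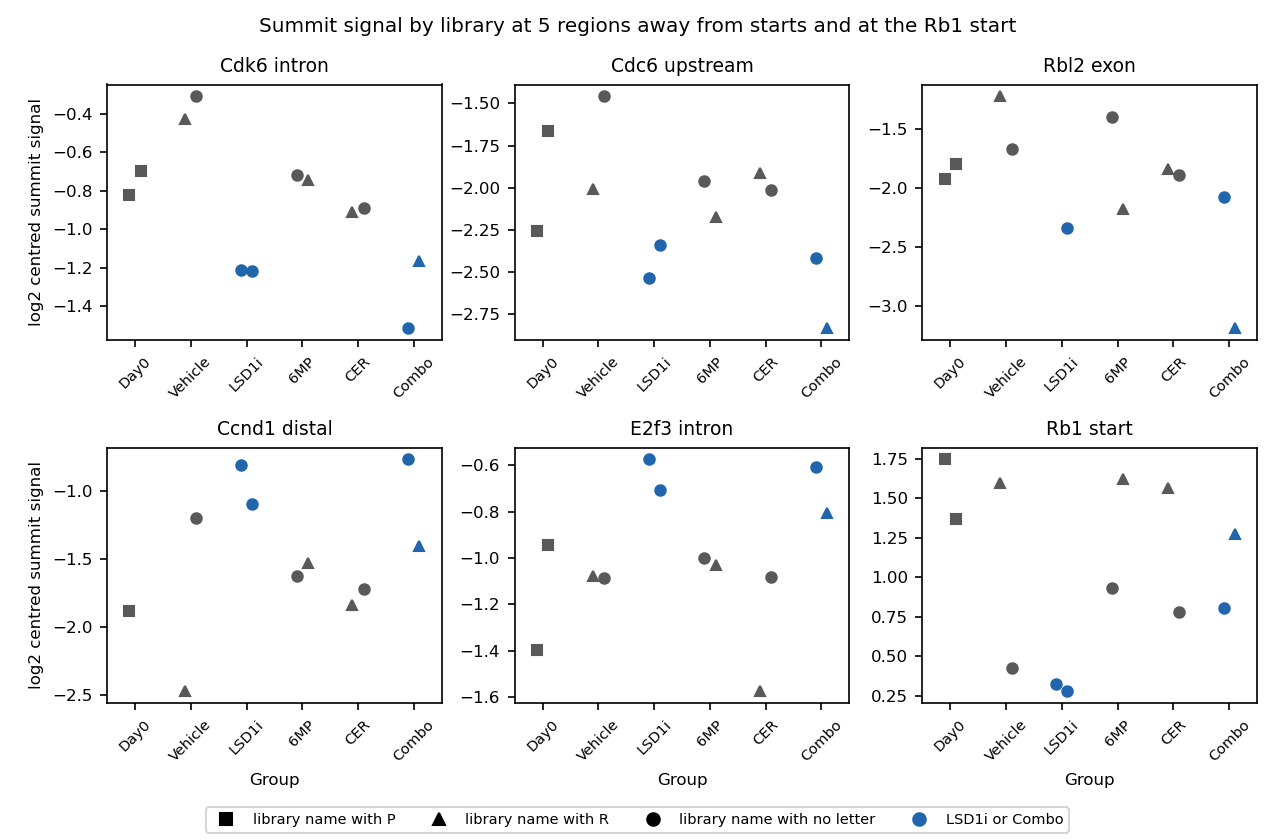
Centred log2 summit signal in each library (y axis; each point 1 library) by group at 5 regions away from gene starts and at the Rb1 start, with the letter in the library name as marker shape; libraries with no called peak have no point. LSD1i and Combo (blue) are lowest at the Cdk6 intron and highest at the E2f3 intron, and the Rb1 start orders by letter, 1.28 to 1.75 with one and 0.28 to 0.93 without.

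Culture for 2 days in DMSO, or with mercaptopurine or cerulenin alone, gave no called member start. For Vehicle minus Day0, limma called 0 of 51 starts (3 at an unadjusted p under 0.05), against 0.0812% of all regions. Of 10154 gene starts, 0 were called opened and 2 closed. The median at member starts was -0.0047 (+0.20 scaled by depth). No member start was opened in the authors' deposited table, which listed 0.826% of all gene starts. The lowest starts were Rb1 (-0.55 ± 0.25), E2f2 (-0.44 ± 0.15) and Rbl1 (-0.31 ± 0.15), and the highest was Pcna (0.32 ± 0.21). Day0 and Vehicle also differ in the letter of the library names, so the letter and the time cannot be told apart. Without Vehicle replicate 1, limma called 2 member starts, both closed (3.92%, against 4.49% of all gene starts).

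For 6MP, limma called 0 of 51 member starts (1 unadjusted), against 0.0% of all regions, where 1882 of 37145 were under an unadjusted 0.05. The median at member starts was -0.02, and -0.48 scaled by depth, where all regions shifted by -0.46. Its replicates lay at opposite ends for many members. The lowest signal of all 12 libraries was in 6MP replicate 1 and the highest in replicate 2 for Mcm7, Mcm4, Cdk4, Ccne2, E2f3, E2f5, Mcm5, Mcm6, Cdc6 and Ccnb1. For CER, limma called 0 of 51 starts (5 unadjusted), against 0.328% of all regions. Of 10092 gene starts, 5 were called opened and 5 closed for CER. The median at member starts was +0.11 (+0.10 for all starts), with 12 of 51 negative, and turned to -0.18 scaled by depth. Highest were Rbl1 (0.51 ± 0.15, limma adjusted p = 0.111), an E2f2 region (0.41 ± 0.15, adjusted p = 0.227) and Bub1 (0.32 ± 0.15, 0.384). Without Vehicle replicate 1, limma called 4 of 51 member starts as opened, and 366 of 10092 gene starts. The authors' deposited table for CER listed no member region and 0.0444% of all gene starts as closed.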

How the data were processed

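The 12 ATAC-seq libraries (6 groups of 2) were used as deposited peak lists, 1 per library, and 4 tables of the authors' comparisons. Per the submitters' processing notes, MACS2 2.1.2, DiffBind, Picard 2.18.26, Bowtie2, SAMtools 1.9 and Trimmomatic 0.38 were used, with mm10. The peak lists deposited by the authors give for each summit a score, a fold ratio over local background and −log10 p and q. The authors' deposited tables give log2 levels and log2 fold with p-values, per the file headers, and hold regions at an FDR of 0.05 or less. The scaling behind these log2 levels is not given in the sources used here. The table for mercaptopurine was not used here.

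From the fold and the −log10 p of each summit, the whole pileup and the local background were recovered (tolerance 0.001 on the −log10 scale), and the smallest background of a library was taken as its depth. Peaks were merged over libraries into 73156 regions. The signal of a region, log2 of its highest pileup over depth, was centred on the library's median over 33368 regions called in all 12 libraries. Pileups only exist where a peak was called, so a library without a peak has no value. Differences were fitted with limma 3.58.1 in R 4.3.3 (trended variance, all groups in 1 fit) over all regions with enough values, with Benjamini-Hochberg adjustment at 0.05. The fit for LSD1i minus Vehicle was tested on simulated data with 200 changed regions among 33368. All simulated regions had the same SD, 0.179. It recovered 94% of log2 changes of 1 but only 12% of changes of 0.5. Of its 110 calls, 4 were false. A member start without a call may therefore still have changed, and the simulation sets no upper limit on the change. Other comparisons, and starts of wider spread such as Rb1, were not simulated. Single regions were tested by exact two-sided permutation in Python 3.11.15 with scipy 1.17.1. Fitted SEs borrow spread across regions, as 2 libraries a group give little of their own.

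The genes and lists were chosen with earlier results of these data known. Full values are given for members called in any comparison, for the highest and lowest of each role, for the 3 members with most listed rows and for members with a listed fold past 1. Alternatives were depth scaling, centring by intensity, the median summit of a region, blocks for replicate number and library name letter, regions called in all libraries, fits on the compared groups only, each library left out and an FDR of 0.01. Leaving out 6MP replicate 1 with CER replicate 2, and leaving the 6MP group out of the contrast, were added after seeing the data.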

Additional observations from a re-analysis of the deposited data

How the results depend on the processing

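Counts are of member regions called by limma unless stated. They include the distant regions that the deposited tables had already listed as changed, which made up every call for LSD1i and Combo when centred and 6 of the 19 for inhibited against other day 2 libraries, so they describe how settings move and give no support to those regions. Scaled by depth alone, 0 were called for LSD1i (1 when centred), 0 for Combo (2 when centred) and 2 for inhibited against other day 2 libraries (19 when centred). In that last comparison the Plk1 start turned to +0.018 and the Ccnd3 region at chr17:47507805-47509296 to +0.032. It gave 12 with centring by intensity and 5 with the median summit of a region. Added after seeing the data, it gave 38 without 6MP replicate 1 and CER replicate 2. In this order, 11.8%, 7.84% and 54.9% of member starts closed, against 10.4%, 6.66% and 54.0% of all gene starts. Fits on only the groups compared gave 4 for LSD1i, 1 for Combo and 1 for Combo minus LSD1i. At starts, that for LSD1i closed 5.88% of members, against 3.29% of all gene starts. That for Combo called 0 of 51, against 91 opened and 132 closed of 10262. That for Combo minus LSD1i opened 1 of 51, against 236 of 10313. Regions called in all libraries, and the median summit, each gave 1 for Combo. The library name letter as a block gave 4 for Combo and 1 for CER. At starts, it called 0 of 51 for Combo, against 161 opened and 249 closed of 10262. For CER it opened 1 of 51, against 93 of 10092. For Vehicle minus Day0 it was not run, since the letter P occurs only in Day0. With 1 library left out, the counts were 0 to 2 for Vehicle minus Day0, 0 to 6 for LSD1i, 0 to 4 for CER and 1 to 5 for Combo. For inhibited against other day 2 libraries they were 8 to 49, with 49 without 6MP replicate 1. In that fit 74.5% of member starts closed, against 61.6% of all gene starts. An exact permutation p under 0.05 was found at 1 start region scaled by depth, and at 8 to 28 with 1 library left out (28 without 6MP replicate 1, 16 without Vehicle replicate 2), in place of 10. At an FDR of 0.01 the authors' deposited tables kept 0 member rows for Vehicle minus Day0 and 2 for Combo. Shares over all gene starts are not given for the alternative exact tests or for the FDR of 0.01. The cause of these changes was not tested. Over all alternatives, single called regions kept their call in 259 fits of the inhibited comparison, lost it in 99 and changed sign in 2.

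Replicate numbers are shared across groups, but same-numbered libraries did not deviate together in every pair of groups (correlations from -0.34 to 0.25). With the replicate block, 18 member regions were called for inhibited against other day 2 libraries, 2 for LSD1i, 2 for Combo and 0 for the other comparisons. In the inhibited comparison this block closed 23.5% of member starts, against 19.5% of all gene starts. For LSD1i it closed 1.96%, against 1.83%, and for Combo 0 of 51, against 106 of 10262.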
